A study of Mus musculus with 8 samples.

Results

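The interferon-stimulated genes described here are 43 genes picked by name: the receptors for interferon, the transcription factors that carry its signal, and the sensors and antiviral proteins that those factors switch on. All 43 were present among the 54532 entries of the gene count table. Of these, 40 had enough reads to be tested together with all other expressed genes, 14150 in total, and *Oas3*, *Mx1* and *Rsad2* did not. The data are RNA sequencing of primary lung fibroblasts (pFBs) in 8 libraries, 4 from wild type (WT) and 4 from homozygous (HOMO) mice. HOMO mice carry a human *IGFBP5* transgene on both alleles, placed by CRISPR/Cas9 and expressed ubiquitously, so that the transgene is not limited to fibroblasts, and WT mice lack it. Both genotypes have the strain background C57/black, the libraries came from female mice, and the cells were untreated and kept in complete medium. Ages, and how many mice or cultures stand behind the 4 libraries of each genotype, are not given in the sources used here, so the spread between libraries may in part be technical.

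Interferons are secreted when a cell senses foreign or misplaced nucleic acid. Type I interferons bind the receptor made of IFNAR1 and IFNAR2, and the kinases JAK1 and TYK2 then switch on a transcription factor complex that holds STAT2 and IRF9 and binds the interferon-stimulated response element (ISRE) in promoters. Interferon gamma binds IFNGR1 and IFNGR2 and acts mainly at the gamma-activated site (GAS). Fibroblasts carry both kinds of receptor, and a low tonic signal keeps many of the target genes above zero in uninfected cells.

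The libraries held between 17236521 and 31987790 counts, so that 3 counts corresponded to 0.0908 to 0.172 CPM, the counts scaled to a common library size, the unit used below. Replicates were not equally apart. WT1 with WT2, HOMO1 with HOMO2 and HOMO3 with HOMO4 differed by a biological coefficient of variation of 4.74% to 7.66%, against 31.6% to 58.5% for the other pairs within a genotype. Those 3 pairs still differed by more than sampling noise, with a chi-square per degree of freedom of 4.41 to 8.20. The mouse gene *Igfbp5* had 130, 225, 7130 and 112 counts in the WT and 24, 37, 37 and 57 counts in the HOMO libraries, each in the order of their numbers, which places WT3 apart. The human transgene is not among the mouse genes of the table and was not analysed here. Fibroblast markers (8 genes) summed to between 9925 and 14029 CPM in WT and between 12459 and 22319 CPM in HOMO, most of it from *Col1a1* and *Col1a2*. Markers of T and B cells summed to at most 0.348 CPM, of plasmacytoid dendritic cells to at most 2.64 CPM, of endothelial cells to at most 4.30 CPM and of epithelial cells to at most 11.3 CPM. Mesothelial markers (4 genes) summed to 21.3, 23.3, 152 and 117 CPM in WT and to between 90.1 and 129 CPM in HOMO, so WT1 and WT2 had the fewest. By the calling rule given below, the fibroblast marker *Pdgfrb* was lower in HOMO (log2 fold change −0.97, adjusted p = 0.0251 by edgeR). The epithelial marker *Cdh1* (2.77, adjusted p = 0.0462 by edgeR) and the mesothelial marker *Wt1* (3.36, adjusted p = 0.0166 by edgeR) were higher. No other marker of these cell types was called. Macrophage markers (10 genes) were not near zero, and their values are given beside the results they move with. In cultures of this kind, fewer cells of a type and less RNA per cell cannot be told apart.

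The DNA motif that the interferon signal acts on was common in front of the members. RefSeq windows from 250 bases before to 50 bases after the start site (GRCm38.p6) were matched to 32 of the 43 genes by symbol, and *Dhx58*, *Ifi27*, *Iigp1*, *Mx1*, *Mx2*, *Oas2*, *Parp14*, *Parp9*, *Rtp4*, *Usp18* and *Zbp1* had none. The ISRE core, searched as GAAANNGAAA on both strands with overlapping matches allowed, stood in 16 (50%) of the 32 members and in 3.99% of 27025 genes with a window, each counted once. The GAS motif, TTCNNNGAA, stood in 11 (34.4%) of the members and in 9.55% of all. None of the 4 receptor genes held the ISRE core. The following 5 stretches are the 200 bases before the start site of *Isg15*, *Oas1a*, *Ifit1*, *Ifit3* and *Gbp3*, members that were lower in HOMO and that held at least 2 matches each. Capitals mark the ISRE core, on whichever strand it was found.
Isg15 (chr4:156200819-156201018, minus strand): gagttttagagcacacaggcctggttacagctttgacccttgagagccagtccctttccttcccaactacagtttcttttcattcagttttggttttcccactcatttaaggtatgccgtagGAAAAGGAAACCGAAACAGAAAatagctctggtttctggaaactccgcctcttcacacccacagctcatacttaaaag
Oas1a (chr5:120907526-120907725, minus strand): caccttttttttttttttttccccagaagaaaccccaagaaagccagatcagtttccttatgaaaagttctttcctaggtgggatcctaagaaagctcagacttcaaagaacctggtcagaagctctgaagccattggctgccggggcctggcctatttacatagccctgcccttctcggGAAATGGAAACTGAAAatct
Ifit1 (chr19:34640689-34640888, plus strand): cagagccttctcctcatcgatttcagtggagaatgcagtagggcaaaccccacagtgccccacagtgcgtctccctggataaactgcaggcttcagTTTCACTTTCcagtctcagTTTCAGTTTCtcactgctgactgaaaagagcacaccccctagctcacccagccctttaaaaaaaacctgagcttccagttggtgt
Ifit3 (chr19:34583329-34583528, plus strand): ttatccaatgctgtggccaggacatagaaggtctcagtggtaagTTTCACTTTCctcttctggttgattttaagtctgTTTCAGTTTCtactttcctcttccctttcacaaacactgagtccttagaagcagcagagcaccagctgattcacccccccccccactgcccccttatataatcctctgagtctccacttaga
Gbp3 (chr3:142559844-142560043, plus strand): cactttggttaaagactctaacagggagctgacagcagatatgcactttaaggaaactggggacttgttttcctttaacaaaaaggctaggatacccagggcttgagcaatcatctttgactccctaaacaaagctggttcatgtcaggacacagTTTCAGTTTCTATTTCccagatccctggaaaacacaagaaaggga
In *Isg15*, 3 cores overlapped, beginning 78, 72 and 66 bases before the start site. In *Oas1a* the cores lay closest to the start, at 20 and 14 bases, and they too ran into each other, as did those of *Gbp3* at 45 and 39 bases. *Ifit1* (104 and 85 bases) and *Ifit3* (156 and 122 bases) each held a separate pair read on the opposite strand. A match of letters is a description of the sequence and not a bound site.

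More interferon-stimulated genes were lower than higher in HOMO pFBs. A gene was called at an edgeR adjusted p under 0.05 with an absolute log2 fold change above 0.6, a rule that 12.1% of all tested genes met. The fit took the libraries as independent, which the near-identical pairs may not be, so its p values and standard errors may be too small. In HOMO, 9 of the 40 tested members fell (*Ifngr2*, *Zbp1*, *Ifit1*, *Ifit3*, *Oas1a*, *Gbp2*, *Gbp3*, *Isg15* and *Usp18*), where the background of downregulated genes was 6.18%. Only *Dtx3l* rose, against a background of 5.94%. The median log2 fold change of the tested members was −0.44, against −0.04 for all tested genes, with 31 members below and 9 above zero. Before adjustment, 16 members below and 2 above zero had p under 0.05. The share of all tested genes with such a p is not given here, so these counts are a description only. Levels did not overlap between the genotypes in 14 tested members with HOMO below WT, where 13.4% of all tested genes had that order, and in 1 with HOMO above WT, where 14.0% had it. The 30 uncalled members had adjusted p between 0.0599 and 0.976.

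**Figure D1:**
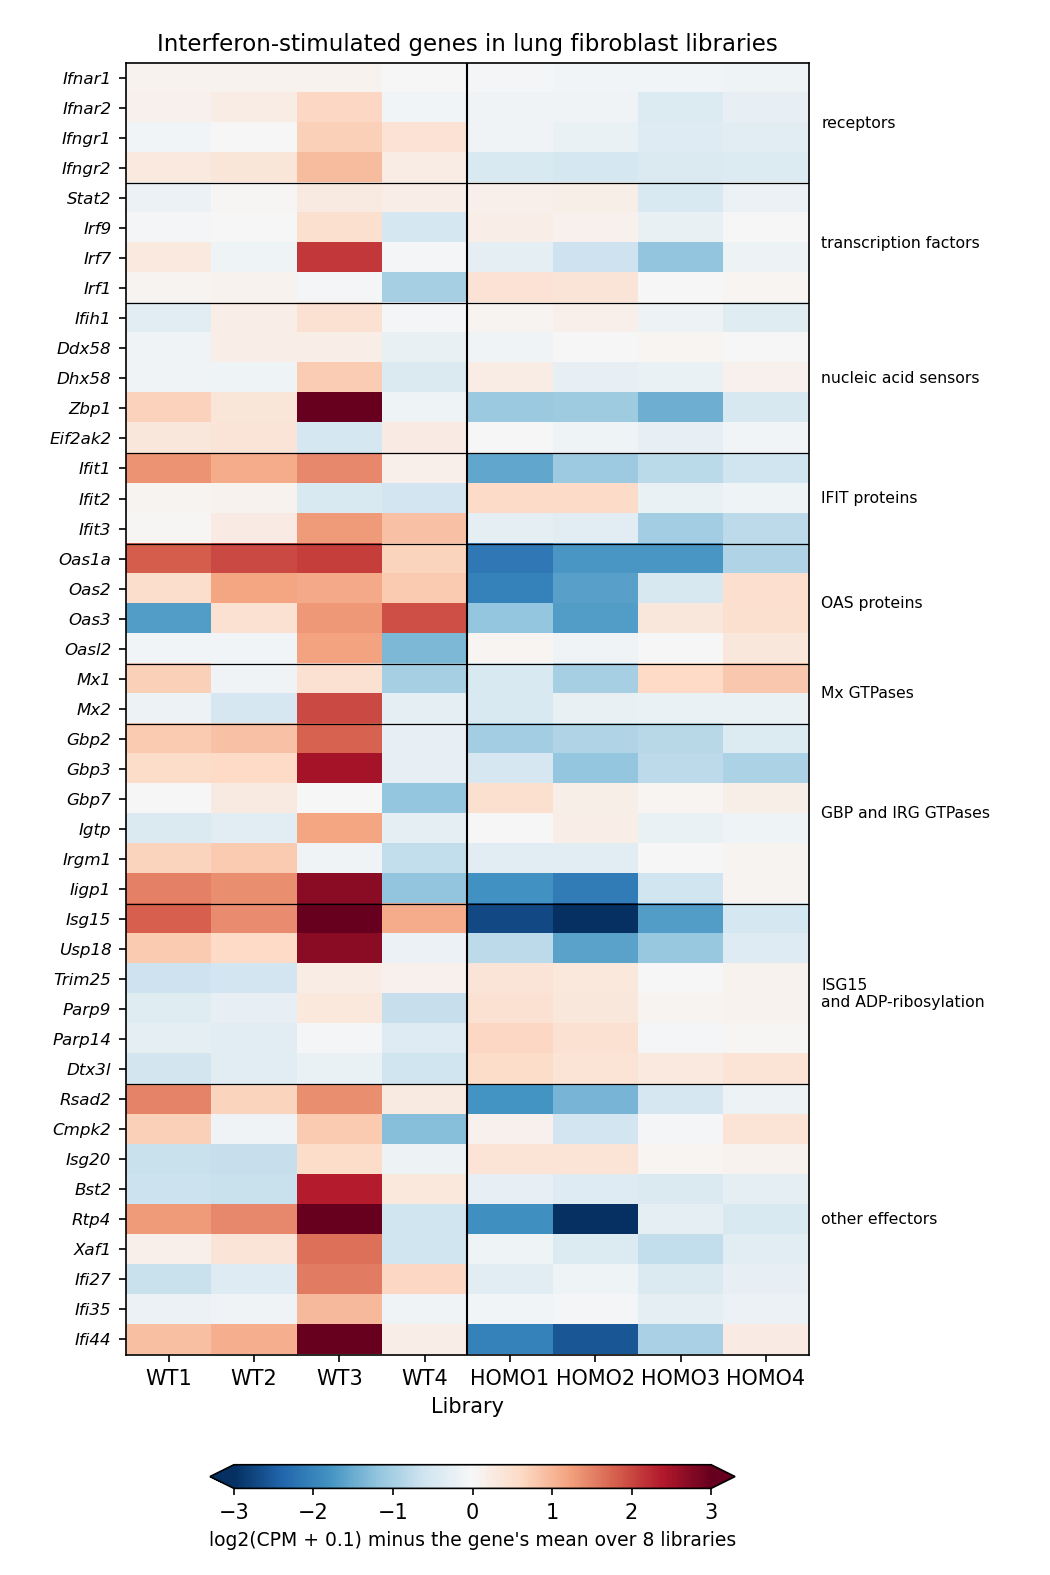
Heat map of the 43 genes (rows, grouped by role) in 8 libraries (columns, WT left and HOMO right of the line), coloured by log2(CPM + 0.1) minus the gene's mean over the libraries, with red above and blue below that mean and the scale ending at 3 either way. WT3 is the reddest column and was the highest of the 8 libraries in 29 of the 40 tested genes, while *Isg15*, *Oas1a* and *Ifit1* are red in every WT library and blue in every HOMO library.

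**Figure D2:**
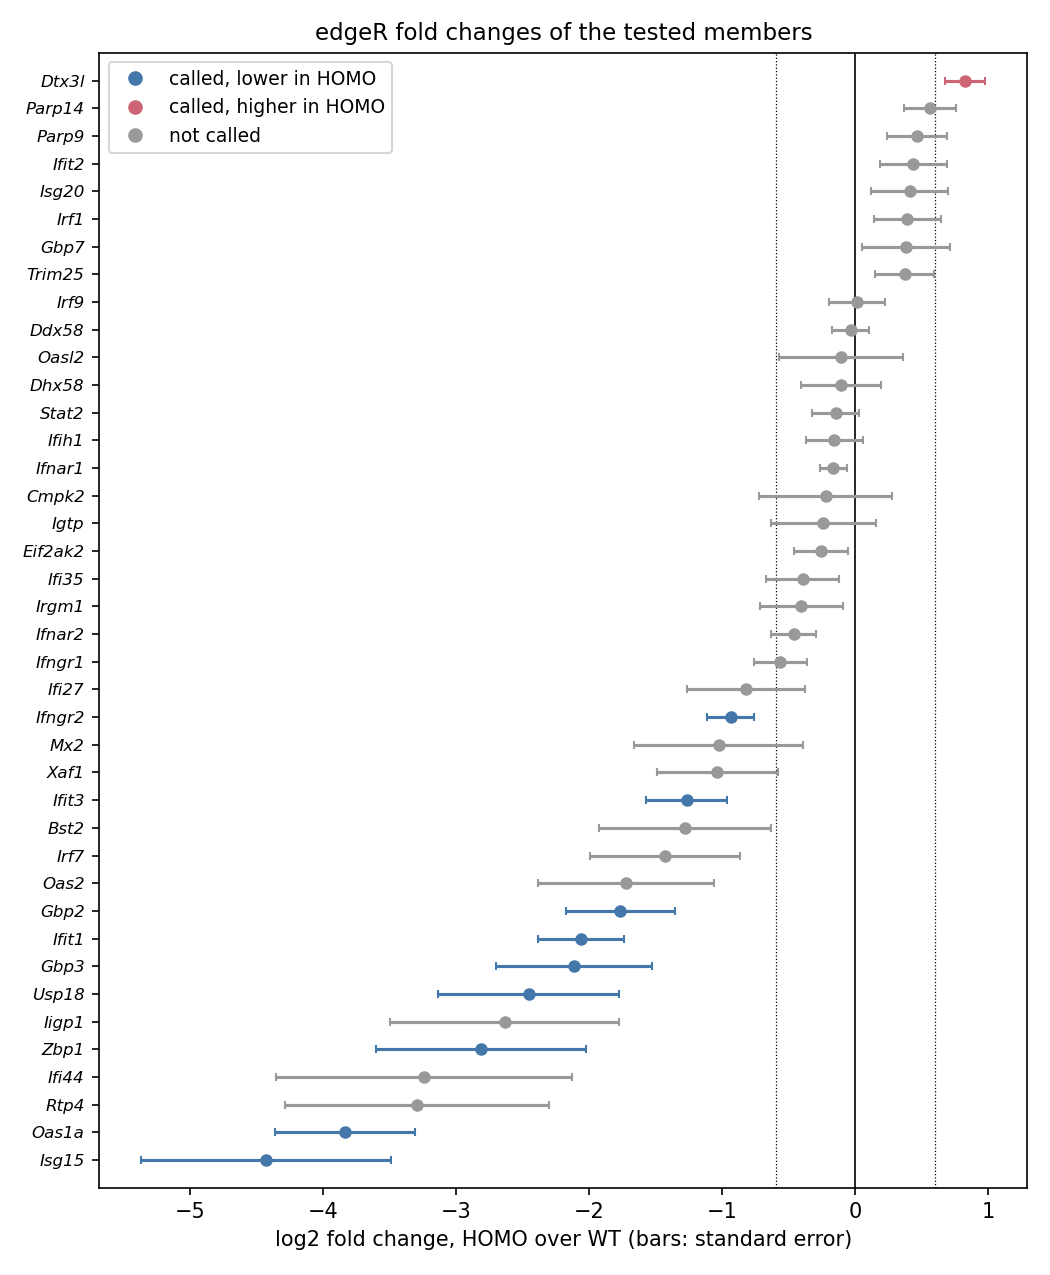
Log2 fold change of HOMO over WT for the 40 tested genes in order of size (points, with bars for the standard error of the edgeR fit), and dotted lines at the threshold of 0.6 on either side. The values run from −4.43 for *Isg15* to 0.82 for *Dtx3l*, and the widest bars belong to genes with few counts in HOMO.

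The receptors were all lower in HOMO, without overlap, and 1 of the 4 was called. *Ifngr2*, the signalling chain of the interferon gamma receptor (chromosome 16 from 91547072 to 91565623, GRCm38), was measured at 78.4, 81.5, 123 and 74.4 CPM in WT1 to WT4 and at 46.5, 44.5, 47.1 and 48.2 CPM in HOMO1 to HOMO4. The HOMO libraries were tightly grouped, and the lowest WT library lay well above them. Its log2 fold change was −0.94 (SE 0.17, adjusted p = 0.0133 by edgeR). *Ifngr1*, the ligand-binding chain (chromosome 10 from 19591949 to 19610229), was measured at 62.2, 65.4, 109.5 and 90.1 CPM in WT and at 61.2, 57.7, 50.3 and 52.1 CPM in HOMO, a log2 fold change of −0.56 (SE 0.20, adjusted p = 0.0895 by edgeR). WT1 and HOMO1 were almost level in it.

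Of the type I receptor, *Ifnar2* (chromosome 16 from 91372783 to 91405589) stood at 44.7, 47.7, 62.4 and 38.7 CPM in WT and at 37.7, 37.7, 30.6 and 34.1 CPM in HOMO (log2 fold change −0.46, SE 0.17, adjusted p = 0.0999 by edgeR). *Ifnar1* (chromosome 16 from 91485238 to 91507441) had the smallest difference of the receptors, with 75.4, 75.2, 75.2 and 69.8 CPM in WT and 68.1, 66.0, 65.9 and 63.6 CPM in HOMO. Its log2 fold change was −0.17 (SE 0.10, adjusted p = 0.292 by edgeR). *Ifnar2*, *Ifnar1* and *Ifngr2* lie in this order on chromosome 16, with 79648 and 39630 bases between them. The first of these gaps holds *Il10rb*, a pathway gene described below. The median log2 fold change of all tested genes on that chromosome was 0.16.

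None of the 4 transcription factors was called. *Irf7*, the interferon-induced factor that amplifies type I interferon production (chromosome 7 from 141262706 to 141266481), was measured at 4.95, 3.69, 17.9 and 3.83 CPM in WT and at 3.30, 2.60, 1.72 and 3.61 CPM in HOMO. The genotypes did not overlap, yet WT2 and WT4 lay just above HOMO4, and the log2 fold change of −1.43 (SE 0.56, adjusted p = 0.12 by edgeR) was not called. WT3 was at 4.31 times the mean of the other WT libraries, and without it the difference was −0.57. Genes on chromosome 7 were shifted upwards in WT3 as a whole, by a median of 0.36 on the log2 scale. *Stat2*, the most counted of the 4 (chromosome 10 from 128270559 to 128292849), was at 47.8, 55.4, 65.4 and 62.6 CPM in WT and at 60.2, 61.0, 39.6 and 47.7 CPM in HOMO, so that the genotypes were mixed. *Irf9*, the DNA-binding partner of STAT2, had a log2 fold change of 0.01 (SE 0.21), and *Irf1*, an early target of interferon gamma, one of 0.39 (SE 0.25).

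Among the 5 nucleic acid sensors, *Zbp1* fell. This sensor of Z-form nucleic acid (chromosome 2 from 173206612 to 173218923) was measured at 3.09, 2.45, 18 and 1.70 CPM in WT and at 0.802, 0.847, 0.608 and 1.30 CPM in HOMO (log2 fold change −2.81, SE 0.79, adjusted p = 0.0486 by edgeR). WT3 was 7.44 times the mean of the other WT libraries, which nonetheless all lay above HOMO, and without it the difference was −1.43. *Eif2ak2*, which encodes the double-stranded RNA-activated kinase PKR (chromosome 17 from 78852564 to 78882573), showed another order, with 83.6, 85.3, 45.6 and 77.3 CPM in WT and 66.2, 60.1, 55.2 and 62.3 CPM in HOMO. Here WT3 was the lowest library, and the log2 fold change was −0.26 (SE 0.20, adjusted p = 0.404 by edgeR). The cytoplasmic RNA sensors *Ddx58* (RIG-I), *Ifih1* (MDA5) and *Dhx58* (LGP2) had log2 fold changes of −0.04, −0.16 and −0.11, each smaller than its standard error.

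The IFIT genes, whose proteins bind viral RNA and hold back its translation, were split. *Ifit1* (chromosome 19 from 34640871 to 34650009) was measured at 34.0, 28.8, 36.2 and 14.8 CPM in WT and at 4.50, 6.26, 7.60 and 8.82 CPM in HOMO. It fell by 2.06 on the log2 scale (SE 0.32, adjusted p = 0.00779 by edgeR), and the lowest WT library still exceeded the highest HOMO library. *Ifit3* (chromosome 19 from 34583531 to 34588731) was measured at 43.6, 50.6, 103 and 78.4 CPM in WT and at 35.5, 33.6, 20.6 and 24.6 CPM in HOMO. It fell by 1.27 (SE 0.30, adjusted p = 0.0304 by edgeR), and per kilobase of exon it was the third highest member, at a mean of 27.9 CPM.

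*Ifit2*, which begins the same cluster (chromosome 19 from 34550694 to 34576419) and ends 7111 bases before *Ifit3*, was at 69.5, 69.8, 47.3 and 43.8 CPM in WT and at 96.9, 97.8, 57.1 and 59.9 CPM in HOMO. Its log2 fold change of 0.44 (SE 0.25, adjusted p = 0.261 by edgeR) was not called, and HOMO3 and HOMO4 lay within the range of WT. Neither of its promoter windows (from 34550444 to 34550743 and from 34550838 to 34551137) held the ISRE core. Other start sites were not searched, and a link to its level was not tested. *Ifit3* has a near-identical neighbour, *Ifit3b*, with which it may share reads, and *Ifit3b* fell as well, by 2.26 (SE 0.41, adjusted p = 0.0125 by edgeR).

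Of the OAS genes, which make the oligoadenylates that activate RNase L, *Oas1a* (chromosome 5 from 120896256 to 120907521) had 51, 75, 60 and 32 counts in WT and 2, 5, 3 and 7 in HOMO. These counts correspond to 2.87, 3.22, 3.44 and 1.24 CPM and to 0.0892, 0.151, 0.152 and 0.351 CPM. Every HOMO library was far below every WT library, WT3 was not apart, and the log2 fold change was −3.84 (SE 0.52, adjusted p = 0.00474 by edgeR). *Oas1a* belongs to a family of close copies, so reads may be divided among them. *Oas2* did not overlap between the genotypes either, with 1.01 to 1.67 CPM in WT and 0.0892 to 1.00 CPM in HOMO, and had a log2 fold change of −1.73 (SE 0.66, adjusted p = 0.113 by edgeR). The related *Oasl2* (chromosome 5 from 114896936 to 114912234), at 6.98, 6.95, 17.3 and 2.86 CPM in WT and 7.76, 6.87, 7.45 and 9.47 CPM in HOMO, had a log2 fold change of −0.11 (SE 0.47), which became 0.50 without WT3. *Oas3* was outside the test at 0 to 1.12 CPM (two-sided exact permutation p = 0.286).

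The Mx GTPases, which trap viral nucleocapsids, were close to the limit of detection. *Mx2* (chromosome 16 from 97535308 to 97560900) was at 0.675, 0.515, 3.33 and 0.619 CPM in WT and at 0.535, 0.635, 0.659 and 0.652 CPM in HOMO. Only WT3 departed from the other libraries, and the log2 fold change of −1.03 (SE 0.64, adjusted p = 0.295 by edgeR) became 0.041 without it. *Mx1*, which is defective in many laboratory strains, was at 0 to 0.251 CPM (two-sided exact permutation p = 1.000).

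Among the interferon-inducible GTPases of the GBP and IRG families, which attack the vacuoles of intracellular pathogens, 2 of 6 fell. *Gbp2* (chromosome 3 from 142620602 to 142638008) was measured at 10.6, 11.4, 21.2 and 5.11 CPM in WT and at 2.90, 3.24, 3.40 and 4.61 CPM in HOMO, a log2 fold change of −1.77 (SE 0.41, adjusted p = 0.0273 by edgeR). *Gbp3* (chromosome 3 from 142560026 to 142573209) was measured at 5.29, 5.45, 20.5 and 3.02 CPM in WT and at 2.50, 1.54, 2.03 and 1.80 CPM in HOMO, a log2 fold change of −2.12 (SE 0.58, adjusted p = 0.0464 by edgeR). In both, WT4 came close to HOMO and WT3 was the highest. Without WT3, *Gbp3* differed by −1.22. The neighbouring *Gbp7* had a log2 fold change of 0.38 (SE 0.33), although all 3 lie within the same cluster. Genes on chromosome 3 had a median log2 fold change of −0.23 and were shifted upwards in WT3 by a median of 0.37 on the log2 scale.

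*Iigp1* (chromosome 18 from 60376027 to 60392634) was at 4.05, 3.73, 9.41 and 0.542 CPM in WT and at 0.312, 0.242, 0.862 and 1.45 CPM in HOMO. WT4 lay among the HOMO libraries, and the log2 fold change of −2.64 (SE 0.86, adjusted p = 0.0757 by edgeR) was not called and was −1.97 without WT3. Genes on chromosome 18 had a median log2 fold change of −0.31. *Irgm1*, which regulates the other IRG proteins and autophagy (chromosome 11 from 48861968 to 48871683), had the highest CPM of the family. It stood at 218, 236, 128 and 82.8 CPM in WT and at 110.4, 108, 138 and 145 CPM in HOMO, so that WT1 and WT2 were above and WT4 below every HOMO library (log2 fold change −0.41, SE 0.31, adjusted p = 0.403 by edgeR).

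The genes of protein modification parted in direction. *Isg15*, the ubiquitin-like modifier that is attached to other proteins (chromosome 4 from 156199424 to 156200818), had 129, 128, 533 and 115 counts in WT and 5, 4, 11 and 27 in HOMO. This gives 7.26, 5.49, 30.6 and 4.45 CPM in WT and 0.223, 0.121, 0.558 and 1.35 CPM in HOMO. Its log2 fold change of −4.43 (SE 0.94, adjusted p = 0.0206 by edgeR) was the largest of all members. WT3 was 5.33 times the mean of the other WT libraries, and without it the log2 fold change was −3.38. HOMO4 held the most counts of its genotype, and without it the value was −5.31. Genes on chromosome 4 were shifted upwards in WT4 by a median of 0.36 on the log2 scale. *Usp18*, which removes ISG15 from proteins and dampens receptor signalling (chromosome 6 from 121245906 to 121270917), was at 2.98, 2.57, 11.6 and 1.47 CPM in WT and at 0.936, 0.484, 0.710 and 1.25 CPM in HOMO. It fell by 2.46 (SE 0.68, adjusted p = 0.0464 by edgeR), with WT4 only just above HOMO4, and by 1.47 without WT3.

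*Dtx3l*, a ubiquitin ligase that works as a partner of PARP9 (chromosome 16 from 35926511 to 35939151), was at 12.5, 14.8, 15.9 and 12.2 CPM in WT and at 26.8, 24.4, 22.4 and 24.6 CPM in HOMO. It rose by 0.82 (SE 0.15, adjusted p = 0.0131 by edgeR), with every HOMO library above every WT library. *Parp9*, which lies head to head with *Dtx3l* and overlaps it by 682 bases, had a log2 fold change of 0.46 (SE 0.22, adjusted p = 0.191 by edgeR), and *Parp14*, in the same cluster, one of 0.56 (SE 0.20, adjusted p = 0.0901 by edgeR). The overlap covers 8.0% of the exon bases of *Dtx3l*. The strand setting of the counting is not given in the sources used here, so reads from the overlap cannot be assigned. Genes on chromosome 16 had a median log2 fold change of 0.16. *Trim25*, the ligase that activates RIG-I (chromosome 11 from 88999376 to 89020293), was at 27.3, 28.1, 49.1 and 46.2 CPM in WT and at 55.0, 52.2, 42.4 and 45.2 CPM in HOMO, with overlap and a log2 fold change of 0.37 (SE 0.22, adjusted p = 0.286 by edgeR).

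**Figure D3:**
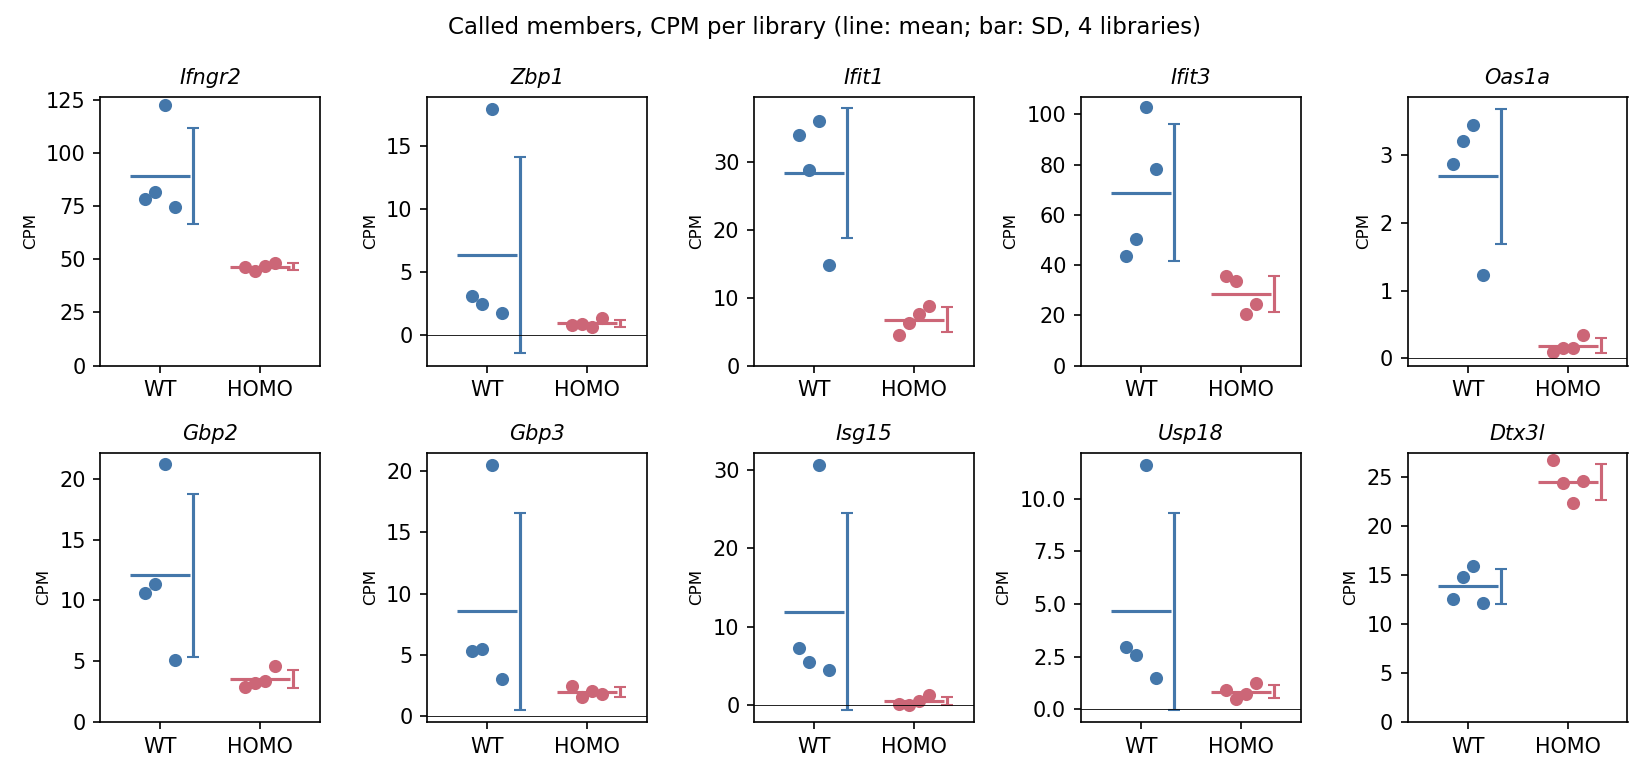
CPM (y axes, linear, one scale per gene) of the 10 called genes in 4 WT (blue) and 4 HOMO (red) libraries, shown as points, with the mean as a line and the SD over 4 libraries as a bar. No WT point overlaps a HOMO point, a single WT point (WT3) lies far above the rest in *Zbp1*, *Gbp3*, *Isg15* and *Usp18*, and *Dtx3l* is the gene in which HOMO is higher.

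The 9 remaining effectors held no call, with *Rsad2* outside the test, and included the members highest per kilobase of exon. *Bst2*, tetherin, which ties budding virions to the cell (chromosome 8 from 71534255 to 71537456), was the highest member per kilobase of exon, at a mean of 89.2 CPM. It was at 38.3, 37.2, 307 and 73.9 CPM in WT and at 49.9, 45.6, 43.9 and 48.4 CPM in HOMO, so that WT1 and WT2 lay below every HOMO library and WT3 and WT4 above. Its log2 fold change was −1.28 (SE 0.65, adjusted p = 0.207 by edgeR), was −0.088 without WT3, and turned to 0.28 when limma-voom weighted the libraries. Genes on chromosome 8 had a median log2 fold change of 0.38. *Ifi27*, a mitochondrial and nuclear envelope protein (chromosome 12 from 103434211 to 103440239), was second per kilobase, at a mean of 50.4 CPM. Genes on chromosome 12 were shifted upwards in WT4 by a median of 0.65 on the log2 scale. It was at 40.6, 48.9, 189.5 and 98.9 CPM in WT and at 52.1, 58.5, 47.9 and 54.7 CPM in HOMO. The log2 fold change of −0.83 (SE 0.44, adjusted p = 0.232 by edgeR) was −0.24 without WT3 and turned to 0.13 under the same weighting.

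*Rtp4*, a chaperone of opioid receptors that also binds viral RNA (chromosome 16 from 23520291 to 23614222), was at 4.28, 4.80, 19.9 and 1.08 CPM in WT and at 0.401, 0.121, 1.37 and 1.20 CPM in HOMO. WT4 fell among the HOMO libraries, and the log2 fold change of −3.30 (SE 0.99) had an edgeR adjusted p of 0.0599, the nearest to the threshold of the uncalled members, and was −2.15 without WT3. *Ifi44* had a log2 fold change of −3.24 (SE 1.11, adjusted p = 0.0852 by edgeR) and *Xaf1* one of −1.04 (SE 0.46, adjusted p = 0.155 by edgeR), which were −2.18 and −0.43 without WT3. *Isg20*, an exonuclease, had one of 0.41 (SE 0.29, adjusted p = 0.361 by edgeR). *Rsad2*, which encodes the antiviral enzyme viperin and was outside the test, was counted 23, 16, 21 and 13 times in WT and 1, 3, 5 and 7 times in HOMO. Its genotypes did not overlap (two-sided exact permutation p = 0.0286, the smallest that 8 libraries in groups of 4 allow). That test, like the edgeR fit, takes the libraries as independent, which the near-identical pairs may not be, so this p may be too small. *Cmpk2*, 12751 bases from *Rsad2*, had a log2 fold change of −0.22 (SE 0.50).

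Averaged over the 43 genes, log2 CPM was 3.31, 3.35, 4.25 and 2.94 in WT1 to WT4 and 2.62, 2.48, 2.67 and 2.96 in HOMO1 to HOMO4. The mean was 3.46 ± 0.56 (SD, n = 4) in WT and 2.68 ± 0.20 (SD, n = 4) in HOMO, a difference of −0.78 on the log2 scale. WT4 and HOMO4 were level, and the other WT libraries were above every HOMO library. Without WT3 the difference was −0.52. Taken as log2 of the summed CPM of the members, which weights them by level, it was −0.37 with all libraries. WT3 was the highest WT library in 33 (82.5%) of the 40 tested members, against 35.8% of all tested genes, and was more than 1.5 times the mean of the other WT libraries in 24 (60.0%), against 22.7% of all tested genes.

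**Figure D4:**
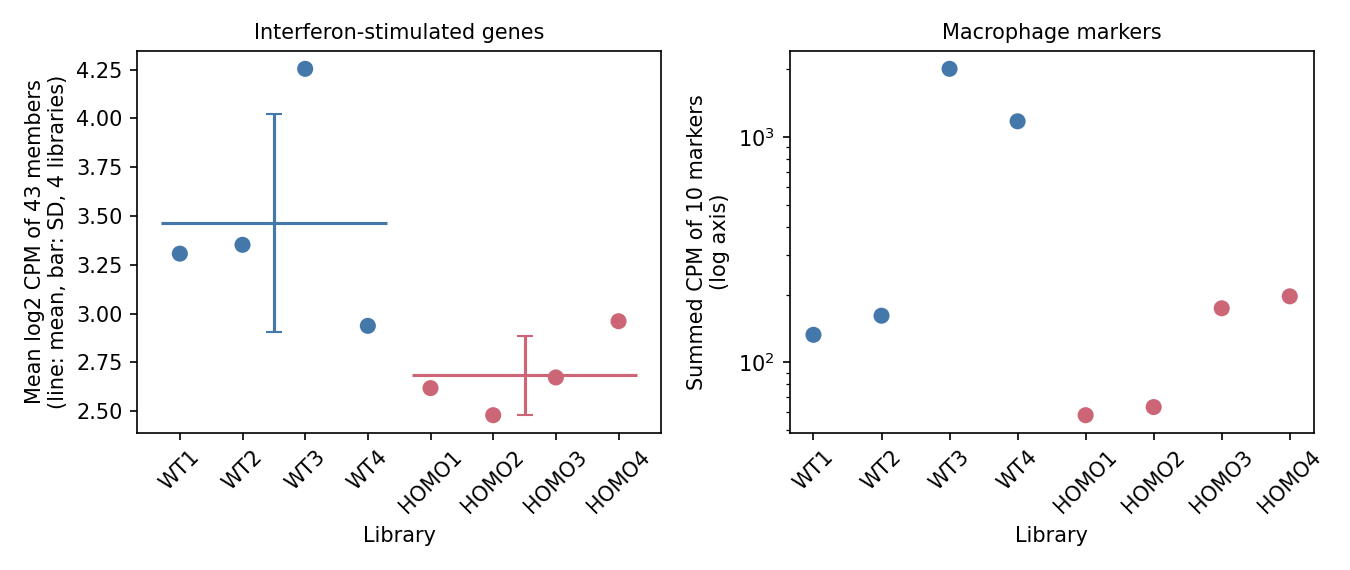
Left, mean log2 CPM of the 43 genes in each library (points, WT blue and HOMO red, with the genotype mean as a line and the SD over 4 libraries as a bar); right, summed CPM of 10 macrophage markers on a log axis. WT3 is the highest in both panels, whereas WT4, second in macrophage markers at 1173 CPM, has the lowest gene mean of WT at 2.94.

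Macrophage markers moved with part of this pattern. Their sum was 133, 161, 2004 and 1173 CPM in WT1 to WT4 and 58.4, 63.4, 174 and 196 CPM in HOMO1 to HOMO4, and none of the 9 tested markers was called. *Lyz2*, a macrophage lysozyme, supplied 1707 CPM in WT3 and 912 CPM in WT4, so the sums of those libraries mainly follow that gene. In HOMO1 and HOMO2 it was at 14.5 and 12.9 CPM, and *Cd14* supplied more of the sum. *Cd14* went the other way, with 18.7, 15.4, 53.5 and 20.9 CPM in WT and 32.5, 37.7, 28.8 and 30.0 CPM in HOMO (log2 fold change 0.25). The other tested markers had log2 fold changes from −3.68 (*Lyz2*) to −0.82 (*Csf1r*). The sums of WT1 and WT2 lay between those of HOMO2 and HOMO3. With WT3 and WT4 both left out, a choice made after the data were seen, 12 members were called lower and 3 higher in HOMO, in a fit that called 20.9% of all tested genes. The called members shared with all libraries in place were *Ifit1*, *Oas1a*, *Isg15*, *Gbp2*, *Gbp3*, *Ifngr2*, *Usp18*, *Zbp1* and *Dtx3l*, whereas *Ifit3* was lost. The WT libraries left in that fit are the near-identical WT1 and WT2. The difference of the mean log2 CPM was −0.65 without WT3 and WT4.

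The number of calls depended on which libraries entered and on whether near-identical libraries were taken as separate. *Ifit1* and *Oas1a* were called whichever of the 8 libraries was left out, *Ifngr2* and *Dtx3l* in 6 of the 8 fits, *Isg15* in 5, *Ifit3* and *Gbp2* in 3, and *Zbp1*, *Gbp3* and *Usp18* in 2. Without HOMO1, or without HOMO2, *Ifit1* and *Oas1a* were the only members called, in fits that called 3.52% and 3.56% of all tested genes. The 9 downregulated members became 5 without WT2, 3 without HOMO3 and 5 without HOMO4, and without WT3 the upregulated members became 3, *Dtx3l*, *Isg20* and *Parp9*. Of all tested genes, 8.29% were called without WT2, 7.11% without HOMO3, 6.72% without HOMO4 and 15.0% without WT3, so the counts over all genes moved as well. When the counts of each near-identical pair were summed, which leaves 3 WT and 2 HOMO units, edgeR called none of 16130 genes, with a smallest adjusted p of 0.235 among members. In that fit 11 members lower and 1 higher in HOMO (*Dtx3l*) had an unadjusted p under 0.05. The share of all genes with such a p is not given here either. All 10 called members kept their direction.

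By call, the ISRE core stood in 6 (85.7%) of the 7 downregulated members with a window, *Ifngr2* being the exception, and in 10 (41.7%) of the 24 members with a window that were not called. The window of *Dtx3l* held neither motif. The members differ in more than their call, and these shares were not tested.

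Beyond the members, 105 further genes of the interferon pathway were examined, of which 73 were tested. They moved both ways, with 7 higher and 7 lower in HOMO, beside a background of 5.94% and 6.18% of all tested genes, and their median log2 fold change was −0.07. The 21 genes for the interferons themselves were all outside the test. Of these, 16 were not counted in any library and the highest count was 7. *Ifnb1*, the type I interferon that fibroblasts make, was counted once, in WT1, and *Ifng* was not counted. At this depth neither was measurable.

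The kinases *Jak1* and *Tyk2* were not called. *Jak1* had a log2 fold change of −0.04 (SE 0.22, adjusted p = 0.926 by edgeR). *Tyk2* averaged 28.8 ± 4.57 CPM over WT and 42.8 ± 0.515 CPM over HOMO libraries (SD, n = 4 each), without overlap. Its log2 fold change of 0.57 (SE 0.14, adjusted p = 0.0334 by edgeR) passed the test and stayed under the fold threshold.

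Among the upregulated pathway genes, *Ifi204*, a DNA-binding protein of the HIN-200 family, averaged 8.11 ± 5.54 CPM over WT and 41.2 ± 8.67 CPM over HOMO libraries (SD, n = 4 each), and rose by 2.35 on the log2 scale (SE 0.42, adjusted p = 0.0116 by edgeR), or by 2.94 without WT3. The nuclear body protein *Sp110* rose by 1.82 and *Nmi*, which binds STAT proteins, by 1.28. *Socs3*, which shuts off JAK signalling, rose by 1.05 (SE 0.22, adjusted p = 0.0188 by edgeR), and *Uba7*, the enzyme that activates ISG15 for its attachment, by 0.95 (SE 0.24, adjusted p = 0.0344 by edgeR). Among the downregulated, *Ifit3b* was followed by *Trim30a*, at −1.72, *Slfn2*, a regulator of lymphocyte and myeloid quiescence, at −1.48 and called in 1 of the 8 fits that left out a library, *Lgals9*, a galectin, at −1.03, and *Il10rb*, a chain shared by the receptors of interferon lambda and interleukin-10, at −0.93. *Il10rb* lies on chromosome 16 between *Ifnar2* and *Ifnar1*. Of the 8 fits that left out a library, *Ifi204*, *Ifit3b* and *Lgals9* were called in all 8. *Sp110*, *Nmi*, *Socs3* and *Trim30a* were called in 6, *Il10rb* in 4 and *Uba7* in 3. Without WT3, 14 pathway genes were called higher and 4 lower, where 15.0% of all tested genes were called. Without HOMO1, or without HOMO2, 2 were called each way, where 3.52% and 3.56% of all tested genes were called. The 7 downregulated became 3 without WT2 or HOMO3 and 4 without HOMO4.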

How the data were processed

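Total RNA of pFBs was extracted with Trizol and made into libraries with a NEBNext Ultra kit. As the study's methods and the labels give it, the authors aligned reads with STAR to mm10 and counted them with featureCounts, and the deposited table holds raw counts per gene, with no normalization. The name of the table carries a word for outliers taken out, which the sources used here do not explain, so whether libraries were left out before deposit, and with them part of the spread between replicates, is not known here. The strand setting is not given in the sources used here. Counts were tested with edgeR 4.0.16 in R 4.3.3 (TMM, filterByExpr, quasi-likelihood F test, Benjamini-Hochberg over 14150 genes), and the design held genotype only. CPM used TMM library sizes, and mean log2 CPM a prior count of 2. Members outside the test received a two-sided exact permutation test over 70 assignments. Positions are from GENCODE M21 (GRCm38) and promoters from RefSeq (GRCm38.p6). Scripts were tested on simulated data. DESeq2 1.42.0 and limma 3.58.1 served as alternatives. Values per library were given for called members, for members without overlap and an adjusted p under 0.1, for the 3 highest per kilobase, and for the member of each of 9 role groups with the largest log2 fold change or the highest CPM. Of the pathway list, the 10 called genes with the largest change were named, with *Jak1*, *Tyk2*, *Ifnb1* and *Ifng*, and 1 further gene of the list is not reported here. The members and lists were chosen with earlier results of these data known. Floors cover counting error only.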

Additional observations from a re-analysis of the deposited data

Results flagged for a closer look

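In 88 sets of 4 libraries (1 per genotype and gene, for members and their mean), the gap between the most extreme library and its nearest neighbour was divided by the range and compared with Dixon's 95% limit for 4 values. For 4 independent values chance exceeds it in about 1 set in 20. That rate does not hold here, because WT1 with WT2, HOMO1 with HOMO2 and HOMO3 with HOMO4 were near-identical. A HOMO library, or WT1 or WT2, could therefore hardly stand apart alone. The limit was exceeded in 6 sets, all of them WT, which the pairs largely fixed beforehand. WT3 was apart in 4. It was higher than the other WT libraries in *Mx2* (1.77 log2 CPM against −0.73 to −0.39), in *Igtp* (3.57 against 1.95 to 2.13) and in *Ifi35* (5.39 against 4.24 to 4.32), and lower in *Eif2ak2* (5.51 against 6.27 to 6.42). WT4 was lower than the others in *Ifnar1* (6.13 against 6.23 to 6.24) and in *Irf1* (3.90 against 4.83 to 5.01). None of these 6 genes was called. *Trex1*, a DNA exonuclease that restrains interferon induction, was listed at 0 in every library, and all of its exon bases are shared with *Atrip* on the same strand, so it was not measured.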

How the results depend on the processing

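All 10 called members kept their direction under every alternative run. Members called higher numbered 1 and lower 9 with all libraries, where 12.1% of all tested genes were called. They numbered 3 and 15 in limma-voom with sample weights, and 3 higher with WT3 and WT4 left out together (added after the data were seen). DESeq2 called 14 lower. The share of all tested genes called was 25.3% in limma-voom, 20.9% without WT3 and WT4, 10.7% in DESeq2 and 3.52% to 15.0% with a library left out. Leaving out each library in turn gave 0 to 3 higher and 2 to 11 lower. For the pathway list, 7 and 7 became 17 and 12 in limma-voom, 17 higher without WT3 and WT4, and 2 to 14 higher and 2 to 7 lower with a library left out. Summing near-identical libraries gave 0 in each of the 4 counts. Other normalizations, low-count filters and no fold threshold kept these counts within 1.5 times.

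Replicate numbers are shared between genotypes, and whether they pair the libraries is not stated in the sources used here. Deviations of same-numbered libraries correlated at −0.09, −0.04, 0.01 and −0.12. These values are not independent, because of the near-identical pairs, and cannot settle it. The replicate block gave 0 members higher and 4 lower, and 4 pathway genes higher, where 6.69% of all tested genes were called.

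Uncalled genes changed sign as follows, as log2 fold changes. In limma-voom, *Dhx58* was 0.097, *Oasl2* 0.22, *Mx2* 0.18, *Igtp* 0.27, *Cmpk2* 0.0078, *Bst2* 0.28, *Ifi27* 0.13 and *Jak1* 0.050. Without WT3 and WT4, *Stat2* was 0.014, *Dhx58* 0.11, *Oasl2* 0.18, *Mx2* 0.066, *Igtp* 0.36, *Bst2* 0.31, *Ifi27* 0.25 and *Jak1* 0.056. With the block, *Oasl2* was 0.14 and *Jak1* 0.018. With each library left out in turn, the ranges were −0.13 to 0.20 for *Irf9*, −0.11 to 0.021 for *Ddx58*, −0.25 to 0.20 for *Dhx58*, −0.40 to 0.50 for *Oasl2*, −1.30 to 0.041 for *Mx2*, −0.41 to 0.31 for *Igtp*, −0.53 to 0.038 for *Cmpk2* and −0.19 to 0.20 for *Jak1*. Where a call was lost or a sign turned, the cause was not tested. Few counts in HOMO limit the precision of *Oas1a* and *Isg15*.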
